A study of Mus with 4 samples.

Results

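The genes described here are 51 interferon-stimulated genes, the transcripts that a cell raises when an interferon binds its receptor. They were taken by name from the deposited array table, with every probe that carries the symbol of a member. The rule uses no measured value, but the list was drawn up with earlier results of these data known. The array carried 50 of the 51 genes on 83 probes, among 26893 gene symbols in all, and Ifi203 had no probe under that symbol. Of the 83 probes, 76 were tested because each array of at least 1 group showed them well above background, and 69 were well above background on all 4 arrays. Each gene is represented by its brightest probe, the one with the highest mean over the 4 arrays, and the other probes are described beside it. The brightest probes of 49 of the 50 genes were well above background on all 4 arrays, and the exception was Mx1, which was not well above background on OASIS replicate 1.

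RNA came from a murine podocyte cell line, an immortalized line of the epithelial cells that wrap the capillaries of the kidney glomerulus. The cells had been differentiated at 37 °C for 10 to 14 days without interferon-γ. In the OASIS group (2 arrays) a lentivirus carried the active form of OASIS, the N-terminal fragment of the transcription factor encoded by Creb3l1, and in the Venus group (2 arrays) it carried the fluorescent protein Venus as the control. Every culture received lentivirus for 24 h, at a multiplicity of infection of 200 to 500 and with 8 µg/mL polybrene, and RNA was taken 48 h after the virus was added. OASIS is held in the endoplasmic reticulum membrane until it is cut, and the fragment used here lacks that anchor. The construct was expressed from an EF promoter vector and is an overexpression model in 1 cell line. Cells without lentivirus were not analysed here, so that the level of these genes before infection is unknown. The labels do not say that the cultures of a group were separate, and p-values then measure only the spread between these arrays, which may be technical.

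Interferons of type I bind the receptor made of IFNAR1 and IFNAR2, whose kinases TYK2 and JAK1 phosphorylate STAT proteins, STAT2 among them. With IRF9 these form the factor ISGF3, which binds the promoters of antiviral genes such as the IFIT, OAS and Mx families. Interferon-γ acts through its own receptor, and its typical targets include IRF1, the immunity-related GTPases and the guanylate-binding proteins. Sensors of foreign nucleic acid start the same programme by inducing interferon-β through IRF3 and IRF7. Resident kidney cells, podocytes included, can run this programme as leukocytes do.

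All 4 arrays shared 1 slide and 1 scan. Between 33938 and 34418 of 59305 spots per array were well above background and 0 were saturated. Over the probes tested, the Venus arrays correlated at r = 0.997 with each other, the OASIS arrays at 0.995, and arrays of different groups at 0.973 to 0.978. The single Creb3l1 probe differed little between the groups (log2 fold change -0.17, adjusted p = 0.298). Its place in the transcript was not analysed here, so that it may lie outside the fragment that the virus carries and then checks nothing. Of 10 podocyte markers, 8 were well above background on some array, and Ptpro and Tcf21 were not on any. Nphs1 was so on Venus replicate 1 only, by 1 of its 2 probes. The brightest Wt1 probe rose (log2 fold change 4.62, adjusted p = 0.00215 in limma), as did the brightest Cd2ap probe (1.09). A dimmer Kirrel probe fell (-1.11), and the other probes of these 3 genes did not pass the threshold. Of 5 endothelial markers only Pecam1 was detected. Of 7 leukocyte and macrophage markers all but Adgre1 were detected by at least 1 probe. Of 7 Ptprc probes, 5 were well above background on no array and 1 on all 4. For Lyz2, 1 of 2 probes was well above background on no array. The summed level of the leukocyte and macrophage list, as linear intensity relative to the 75th percentile of the array, was 23.7 and 22.7 with Venus and 18.5 and 18.7 with OASIS. By their brightest probes its genes lay on both sides of 0, with Itgam at -0.51, Cd14 at -0.36 and Cd68 at -0.22 on the log2 scale but Ptprc at 0.07, Lyz2 at 0.34 and Csf1r at 0.74, and none passed the threshold. All 3 plasmacytoid dendritic cell markers were detected, with sums of 78.8 and 76.8 with Venus and 68.6 and 61.2 with OASIS, and 1 of them, Bst2, is itself a member. The other 2 were Siglech at 0.05 and Irf8 at 0.23, while Bst2 was at -1.18. The part that such cells have in the results below was not tested.

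Interferon-stimulated genes were lower with OASIS. Of the 50 genes, 26 fell more than 2-fold at an adjusted p under 0.1 (limma, adjusted over all 31598 probes tested), against 1.85% of the 16318 genes tested on the array, and 0 rose, against 6.21%. At an unadjusted limma p under 0.05 the counts were 34 lower and 1 higher, and the latter was Isg20. The share of all genes at that unadjusted p was not counted. Without the fold threshold, 31 of the 50 genes (62%) had an adjusted limma p under 0.1, against 36.8% of all genes. The median log2 fold change was -1.34, a 2.53-fold lower level, while the median of all genes was -0.056. Among the 49 genes well above background on all 4 arrays the log2 fold change ran from -2.55 for Usp18 to 0.87 for Isg20, and 48 of the 50 values lay below 0. Both OASIS arrays were below both Venus arrays for 43 of the 50 genes, against 39.4% of all genes, and above both for 2, Isg20 and Trim25, against 31.5%. Counted by probe, 42 of 76 fell, against 2.47% of all probes tested, and 1 rose. As the cells were measured in bulk, fewer cells with high expression and less RNA per cell cannot be told apart.

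The count of genes past the threshold changed when single arrays were left out. In these fits 1 group holds 1 array, which is assumed to vary like the 2 arrays of the other group. The spread of a probe then comes from the difference between those 2 arrays and from the spread that limma shares across probes. The count was below the reported one without either Venus array or without OASIS replicate 1, and above it without OASIS replicate 2. The members' median log2 fold change was -1.53 without Venus replicate 1 and -1.14 without Venus replicate 2. It was -0.74 without OASIS replicate 1 and -1.90 without OASIS replicate 2. On all 4 arrays, 7 of the 50 genes passed at an adjusted p under 0.05, against 1.48% of all genes. With dim probes kept in the fit 1 passed, against 1.13% of all genes. By the methods' t-test 0 passed, against 0.404% of all genes, and 1 member was lower at an unadjusted p under 0.05. Between 46 and 48 log2 fold changes lay below 0 in each of these fits, and 9152 of the 16318 genes did in the reported fit. Another test or threshold on adjusted p cannot change a log2 fold change. Leaving out 1 array cannot turn the sign of a probe with both OASIS arrays below both Venus arrays. The sign was therefore fixed in advance for most members. For a single gene, 0.333 is the smallest p of an exact two-sided permutation test with 2 arrays a group, so that each adjusted p below rests on the spread that limma shares across probes.

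**Figure D1:**
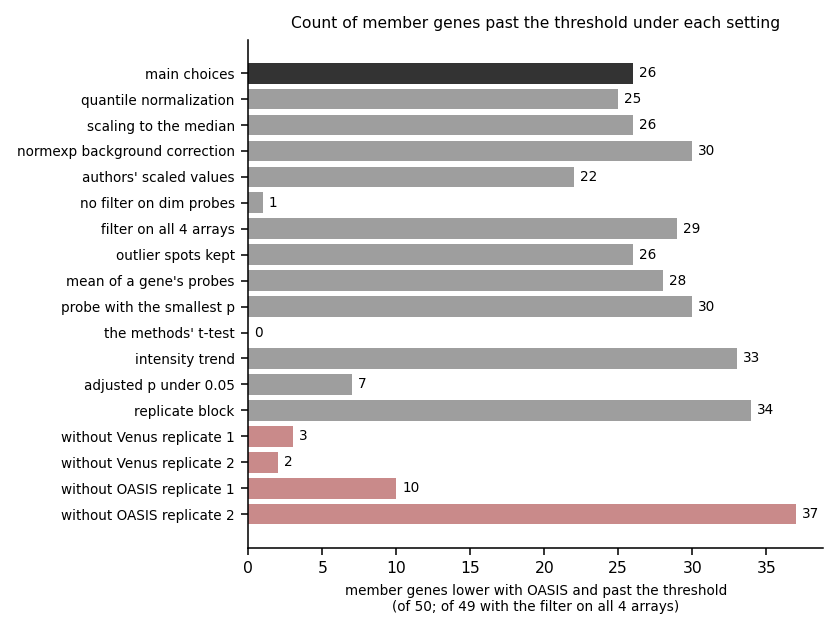
Number of interferon-stimulated genes that fell past the threshold, as bars, for the reported fit and for each alternative, with the fits that leave out 1 array in red. The reported count is 26, and the bars run from 0 with the methods' t-test to the highest without OASIS replicate 2. The share of all genes in each fit is not drawn.

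The OASIS arrays were not equally low. On OASIS replicate 1 the median difference from the mean of the Venus arrays was -1.90, and 37 of the 50 genes lay more than 2-fold below it, as did 3.0% of all genes. On OASIS replicate 2 the median was -0.74 and 11 genes lay more than 2-fold below, against 2.22% of all genes. OASIS replicate 1 was lower than OASIS replicate 2 for 46 of the 50 genes, against 47.4% of all genes. The median difference of the members was 1.02 on the log2 scale in size, and 26 lay more than 2-fold lower on replicate 1. Across all genes these arrays differed by a median of 0.157 in size and 1.29% lay more than 2-fold lower on replicate 1. A smaller difference of the same kind stood between the Venus arrays, with a median of -0.32. Replicate 1 was the lower there for 47 of the 50 genes, against 46.4% of all genes. For 41 of 50 genes (82%) the order from high to low was Venus replicate 2, Venus replicate 1, OASIS replicate 2, OASIS replicate 1, an order that 12.6% of all genes had. The gap between the OASIS arrays was larger than that between the Venus arrays for 47 of the 50, against 64.6% of all genes. Among the 50 genes of the whole array that were lowest on OASIS replicate 1 against OASIS replicate 2, 16 were members. The cause of the difference between arrays of 1 group was not tested.

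**Figure D2:**
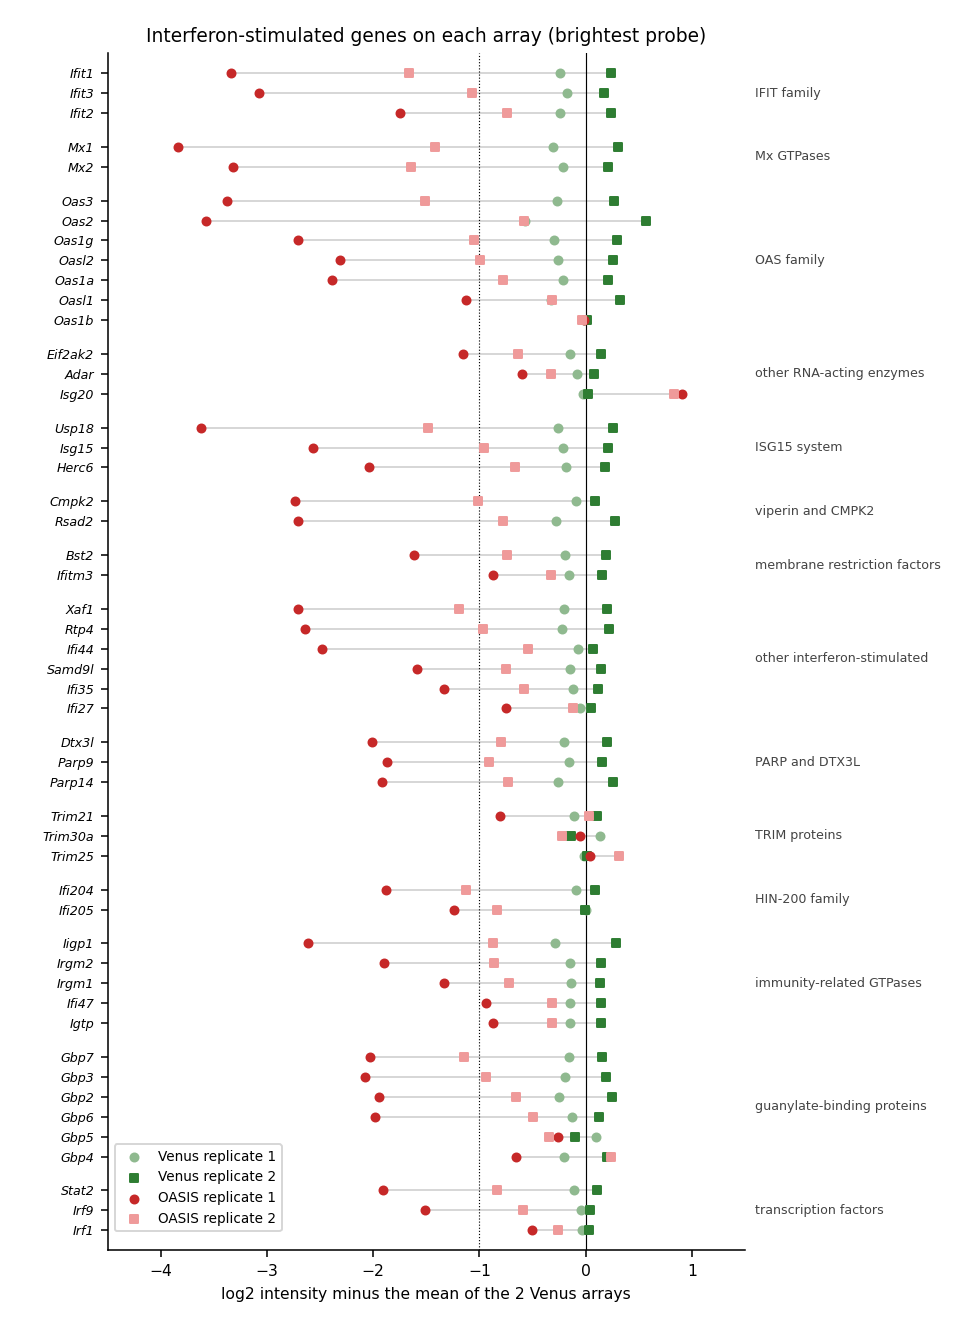
Level of each of the 50 interferon-stimulated genes on each array, as log2 intensity minus the mean of the 2 Venus arrays (x axis, dotted line at a 2-fold lower level), grouped by family, with a point per array and a grey line over their range. OASIS replicate 1 lies farthest to the left in most families, with OASIS replicate 2 between it and the Venus arrays, and Isg20 lies to the right.

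**Figure D3:**
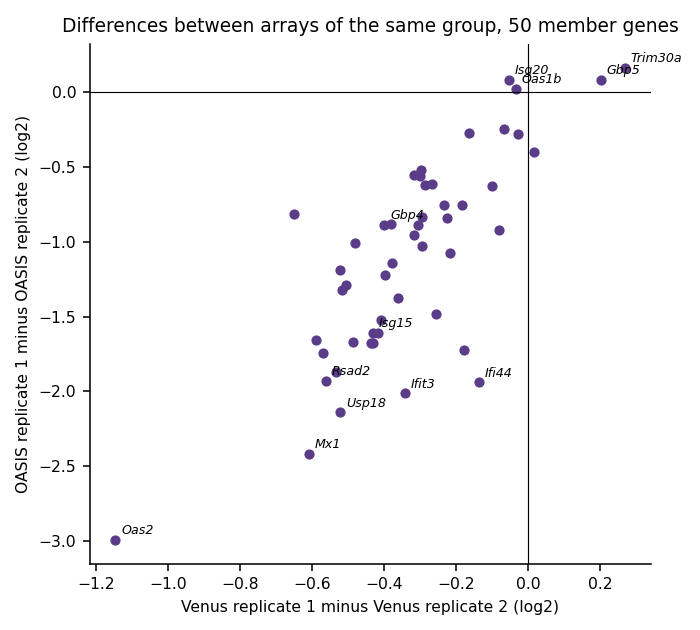
Difference between the Venus arrays (x axis) and between the OASIS arrays (y axis), replicate 1 minus replicate 2 on the log2 scale, with a point for each of the 50 genes. 47 points lie left of 0 and 46 lie below 0, with Oas2 the farthest down at -2.99.

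Values below are log2 intensities relative to the 75th percentile of the array, given for replicate 1 and then replicate 2 of each group. A level of 1 probe was not set against that of another.

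The members that carry the interferon signal to the nucleus include STAT2 and IRF9, subunits of ISGF3. Stat2 read 1.72 and 1.93 with Venus and -0.09 and 0.99 with OASIS. Both OASIS arrays lay below both Venus arrays, and Stat2 fell 2.59-fold (log2 fold change -1.37, SE 0.37, adjusted p = 0.0610). A dimmer Stat2 probe was not well above background with OASIS and was at least 3.54-fold lower there. Its adjusted limma p of 0.00564 was fitted to those dim OASIS values and does not belong to that bound. Irf9, the subunit that recognises DNA, read 2.74 and 2.82 with Venus and 1.27 and 2.19 with OASIS, again with no overlap. It fell 2.07-fold (log2 fold change -1.05, SE 0.32, adjusted p = 0.0771), and its other probe fell 2.39-fold. Irf1, a factor that responds strongly to interferon-γ, read 3.85 and 3.92 with Venus and 3.38 and 3.63 with OASIS. The groups did not overlap, but the difference was 1.30-fold and did not reach the fold threshold (log2 fold change -0.38, SE 0.13, adjusted p = 0.0966), and its second probe gave -0.50.

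All 3 IFIT genes fell. Their products bind foreign RNA ends and hinder translation, and the genes share band 19qC1. Ifit1 read 2.69 and 3.17 with Venus and -0.41 and 1.26 with OASIS, and it fell 5.67-fold (log2 fold change -2.50, SE 0.58, adjusted p = 0.0432). Ifit3 read 3.47 and 3.81 with Venus and 0.56 and 2.57 with OASIS, and fell 4.20-fold. Ifit2 read 0.41 and 0.90 with Venus and -1.09 and -0.09 with OASIS, and fell 2.37-fold. In each of them OASIS replicate 1 was lower than OASIS replicate 2 by more than the whole difference between the Venus arrays. Adjusted p was 0.0780 for Ifit2 and 0.0904 for Ifit3.

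The dynamin-like GTPases Mx1 and Mx2, which block virus replication in the nucleus or cytoplasm and lie in band 16qC4, both fell. Mx2 read 0.50 and 0.93 with Venus and -2.60 and -0.93 with OASIS, without overlap, and fell 5.59-fold (log2 fold change -2.48, SE 0.58, adjusted p = 0.0435). Mx1 read -3.07 and -2.46 with Venus and -6.60 and -4.18 with OASIS, where the first OASIS value was not well above background. Mx1 fell 6.18-fold (log2 fold change -2.63, SE 0.83, adjusted p = 0.0831), a size that rests in part on that value, and its other probe, bright enough on 1 Venus array only, was not tested.

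The 7 members of the OAS family lie in band 5qF. Active enzymes of this family make 2′-5′ linked oligoadenylate when they meet double-stranded RNA and so switch on RNase L. Oas3, Oas1g and Oasl2 fell, and the other 4 did not pass. Oas3 read -1.02 and -0.49 with Venus and -4.14 and -2.27 with OASIS, and fell 5.44-fold (log2 fold change -2.44, SE 0.65, adjusted p = 0.0572). Oas1g read -0.73 and -0.14 with Venus and -3.14 and -1.49 with OASIS, and fell 3.68-fold (adjusted p = 0.0813). Oasl2 read 2.0 and 2.52 with Venus and -0.06 and 1.26 with OASIS, and fell 3.15-fold (adjusted p = 0.0686). In these 3 genes OASIS replicate 1 was the lowest array and OASIS replicate 2 the next. The log2 fold changes of Oas1a, Oas2 and Oasl1 were -1.58, -2.08 and -0.72. Oas2, named after its values were seen, differed most between arrays of 1 group, at -5.44 on OASIS replicate 1 and -2.44 on OASIS replicate 2.

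Oas1b gave a different value with each of its 3 probes. The brightest read 3.74 and 3.78 with Venus and 3.75 and 3.73 with OASIS, so that the groups overlapped at -0.02. The second read -0.14 and 0.04 with Venus and -0.90 and -0.57 with OASIS, and its difference of -0.69 had an adjusted p of 0.0405 but missed the fold. The dimmest read -3.42 and -2.95 with Venus and -5.18 and -4.0 with OASIS, and it fell 2.65-fold (adjusted p = 0.0779). The OAS genes are close in sequence, and whether a probe also binds the transcript of a neighbour was not tested.

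The other 3 enzymes listed act on RNA, and none of their brightest probes passed the threshold. Isg20, an exonuclease for single-stranded RNA, stood apart from the other members. Its brightest probe read 3.18 and 3.23 with Venus and 4.12 and 4.03 with OASIS, with both OASIS arrays higher. That difference was 1.83-fold higher (log2 fold change 0.87, SE 0.10, adjusted p = 0.0104), short of the fold threshold. The second probe read 1.42 and 1.42 with Venus and 2.53 and 2.35 with OASIS, and it rose 2.03-fold (adjusted p = 0.00947), the only member probe to rise. The OASIS arrays lay within 0.08 of each other on the brightest Isg20 probe. For Adar, which edits adenosine in double-stranded RNA, the brightest probe read 1.27 and 1.44 with Venus and 0.75 and 1.03 with OASIS, a difference of -0.46 that missed the fold. The other Adar probe read -1.19 and -0.96 with Venus and -2.38 and -2.21 with OASIS, and it fell 2.33-fold (adjusted p = 0.00915). Eif2ak2, the kinase PKR that halts translation, differed by -0.89 and missed the fold at an adjusted p of 0.0487.

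Isg15 encodes a ubiquitin-like protein that is attached to other proteins during infection. It read 5.98 and 6.41 with Venus and 3.63 and 5.24 with OASIS, with both OASIS arrays below both Venus arrays. It fell 3.40-fold (log2 fold change -1.77, SE 0.56, adjusted p = 0.0837). Usp18 encodes the protease that removes ISG15 and that also limits signalling at IFNAR2. It read 2.70 and 3.23 with Venus and -0.66 and 1.48 with OASIS, and fell 5.86-fold (log2 fold change -2.55, SE 0.73, adjusted p = 0.0680). Herc6, the ligase that attaches ISG15 in the mouse, had a log2 fold change of -1.35 with an adjusted p of 0.107. Among these 3 genes OASIS replicate 1 lay 1.38 to 2.14 below OASIS replicate 2.

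Rsad2 and Cmpk2 lie side by side in band 12qA2 and act together, viperin turning a nucleotide into a chain terminator and CMPK2 supplying that nucleotide. Cmpk2 read -1.99 and -1.81 with Venus and -4.64 and -2.92 with OASIS, and fell 3.67-fold (log2 fold change -1.88, SE 0.58, adjusted p = 0.0794). For Rsad2 the brightest probe read -1.29 and -0.73 with Venus and -3.72 and -1.80 with OASIS, a difference of -1.75 that did not pass (adjusted p = 0.125). Its other probe read -2.30 and -2.04 with Venus and -5.17 and -4.47 with OASIS, where the OASIS arrays stood closer together. That probe fell 6.28-fold (SE 0.26, adjusted p = 0.00774).

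Bst2 and Ifitm3 encode membrane proteins that hold budding virus at the cell surface or block its entry. Bst2, or tetherin, read 4.60 and 4.98 with Venus and 3.17 and 4.05 with OASIS, and fell 2.26-fold (log2 fold change -1.18, SE 0.33, adjusted p = 0.0650). Ifitm3 read 6.03 and 6.34 with Venus and 5.31 and 5.86 with OASIS, so that the groups did not overlap but lay only 0.16 apart at their nearest arrays. Its difference of -0.60 did not pass (adjusted p = 0.127).

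The last 6 members are known first as interferon-stimulated and have varied roles. Xaf1, a promoter of apoptosis, read 2.65 and 3.06 with Venus and 0.14 and 1.67 with OASIS, and fell 3.86-fold (log2 fold change -1.95, SE 0.53, adjusted p = 0.0600). A dimmer Xaf1 probe, not well above background on the OASIS arrays, was at least 1.83-fold lower there, short of the fold threshold. Rtp4, a chaperone of receptors that also binds viral RNA, read 4.20 and 4.64 with Venus and 1.78 and 3.45 with OASIS, and fell 3.50-fold (adjusted p = 0.0863). In both genes OASIS replicate 1 lay more than 1 log2 unit below OASIS replicate 2. Samd9l, a growth-restricting antiviral protein, read 3.02 and 3.31 with Venus and 1.58 and 2.42 with OASIS, and fell 2.24-fold (adjusted p = 0.0568).

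Ifi44 and Ifi35 passed by their dimmer probe only. The brightest Ifi44 probe read -1.09 and -0.95 with Venus and -3.51 and -1.57 with OASIS, with OASIS replicate 2 close to the Venus arrays, and its difference of -1.51 did not pass (adjusted p = 0.155). The dimmer probe read -4.66 and -5.09 with Venus and -7.30 and -8.33 with OASIS, not well above background with OASIS. It was at least 2.40-fold lower there, and was tested only because the Venus arrays were well above background. Its adjusted limma p of 0.0122 was fitted to those dim OASIS values and does not belong to that bound. Ifi35, which binds the factor NMI, read 4.47 and 4.70 with Venus and 3.25 and 4.0 with OASIS, a difference of -0.96 that missed the fold. Its other probe read 2.53 and 2.76 with Venus and 1.15 and 2.01 with OASIS, and it fell 2.09-fold (adjusted p = 0.0702). Ifi27, a mitochondrial and nuclear envelope protein, read 6.04 and 6.14 with Venus and 5.34 and 5.97 with OASIS. OASIS replicate 2 stood only 0.07 below the nearer Venus array, and the difference of -0.43 did not pass (adjusted p = 0.230).

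Parp9, Parp14 and Dtx3l, neighbours in band 16qB3, all fell. PARP9 and DTX3L form a complex that attaches ADP-ribose and ubiquitin, and PARP14 is a mono-ADP-ribosyltransferase. Dtx3l read 1.07 and 1.47 with Venus and -0.74 and 0.48 with OASIS, and fell 2.64-fold. Parp9 read 1.41 and 1.72 with Venus and -0.30 and 0.65 with OASIS, and fell 2.62-fold. Parp14 read 1.72 and 2.24 with Venus and 0.06 and 1.25 with OASIS, and fell 2.51-fold. No group overlapped in these 3 genes, and adjusted p lay between 0.0497 and 0.0923. The second probes of Dtx3l and Parp14 also fell (-1.50 and -1.37 on the log2 scale). A second tested probe of Parp9 overlapped between the groups at 0.13, and its other 2 probes were too dim to test.

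The 3 TRIM ubiquitin ligases did not pass by their brightest probes, and at an unadjusted p under 0.05 limma and the t-test each gave 0. Trim25, which ubiquitinates the RNA sensor RIG-I, read 4.71 and 4.74 with Venus and 4.76 and 5.04 with OASIS with its brightest probe. Both OASIS arrays were above both Venus arrays there, by 0.03 at the nearest, and the mean difference was 0.18 (adjusted p = 0.374). The second probe read 4.57 and 4.70 with Venus and 3.59 and 4.16 with OASIS, a difference of -0.76 in the opposite direction. The dimmest read -0.92 and -0.83 with Venus and -2.47 and -2.09 with OASIS, and it fell 2.64-fold (SE 0.16, adjusted p = 0.00987). The direction for Trim25 therefore depends on the probe. The groups overlapped for Trim21 (-0.39) and Trim30a (-0.13), and the dimmer Trim30a probes gave -1.63 and -1.51 with adjusted p of 0.214 and 0.201, both not well above background on OASIS replicate 1.

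Ifi204 and Ifi205 belong to the HIN-200 family of DNA-binding sensors in band 1qH3. Ifi204 read 2.68 and 2.86 with Venus and 0.89 and 1.65 with OASIS, and fell 2.83-fold (log2 fold change -1.50, SE 0.27, adjusted p = 0.0253). Ifi205 read 2.30 and 2.28 with Venus and 1.05 and 1.45 with OASIS, and fell 2.05-fold (log2 fold change -1.04, SE 0.16, adjusted p = 0.0186). Neither group overlapped in them, and their second probes fell 2.58-fold and 5.57-fold. That of Ifi205 was not well above background on OASIS replicate 1. On OASIS replicate 2 alone, the array nearer to Venus, Ifi204 was -1.12 from the Venus mean and Ifi205 -0.84.

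The immunity-related GTPases attack the vacuoles of intracellular pathogens, and the IRGM proteins keep the others inactive until then. Irgm1 was measured by 4 probes and fell with each. The brightest read 5.98 and 6.25 with Venus and 4.78 and 5.40 with OASIS, and fell 2.03-fold (log2 fold change -1.02, SE 0.24, adjusted p = 0.0446). The other 3 fell 2.21-fold, 2.52-fold and 2.23-fold, so that its 4 estimates lay between -1.02 and -1.33. Irgm2 read 2.64 and 2.93 with Venus and 0.89 and 1.92 with OASIS, and fell 2.60-fold (adjusted p = 0.0574). Iigp1, Ifi47 and Igtp did not pass, with log2 fold changes of -1.75, -0.63 and -0.59 and adjusted p of 0.104, 0.130 and 0.129. In all 5 genes both OASIS arrays lay below both Venus arrays.

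The guanylate-binding proteins coat pathogens and their vacuoles. Of the 4 members in band 3qH1, Gbp3 and Gbp7 fell, and neither of the pair in band 5qE5, Gbp4 and Gbp6, passed. Gbp3 read 0.82 and 1.20 with Venus and -1.07 and 0.07 with OASIS, and fell 2.84-fold (log2 fold change -1.51, SE 0.41, adjusted p = 0.0595). Gbp7 read -2.59 and -2.28 with Venus and -4.46 and -3.58 with OASIS, and fell 3.0-fold (log2 fold change -1.58, SE 0.32, adjusted p = 0.0325). The arrays of the groups did not overlap for either gene. Gbp5, an activator of inflammasomes, gave -1.62 and -1.82 with Venus and -1.98 and -2.06 with OASIS with its brightest probe, a difference of -0.31 that missed both thresholds. Its other probe read -1.76 and -1.39 with Venus and -4.0 and -2.78 with OASIS, and it fell 3.52-fold (adjusted p = 0.0451). For Gbp2, Gbp6 and Gbp4 the log2 fold changes were -1.30, -1.24 and -0.21, and Gbp4 overlapped between the groups. These genes are closely related in sequence, and cross-binding of their probes was not tested.

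Of the 24 genes not past the threshold by their brightest probe, 8 missed the adjusted p alone, 5 missed the fold alone and 11 missed both. Both OASIS arrays lay below both Venus arrays for 17 of them. With any probe counted, 33 genes had at least 1 that fell, and the share of all genes under that rule was not counted. Ifi44 was among them only by a probe not well above background with OASIS. By the probe of smallest p, 30 of the 50 genes fell, against 3.39% of all genes. Among the 21 genes with more than 1 tested probe, every probe fell for 7, some fell for 9, none passed for 4, and for Isg20 1 probe rose. Among probes well above background on all 4 arrays, the log2 fold changes of 1 gene differed by more than 1 for Oas1b, Trim25, Parp9 and Gbp5.

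**Figure D4:**
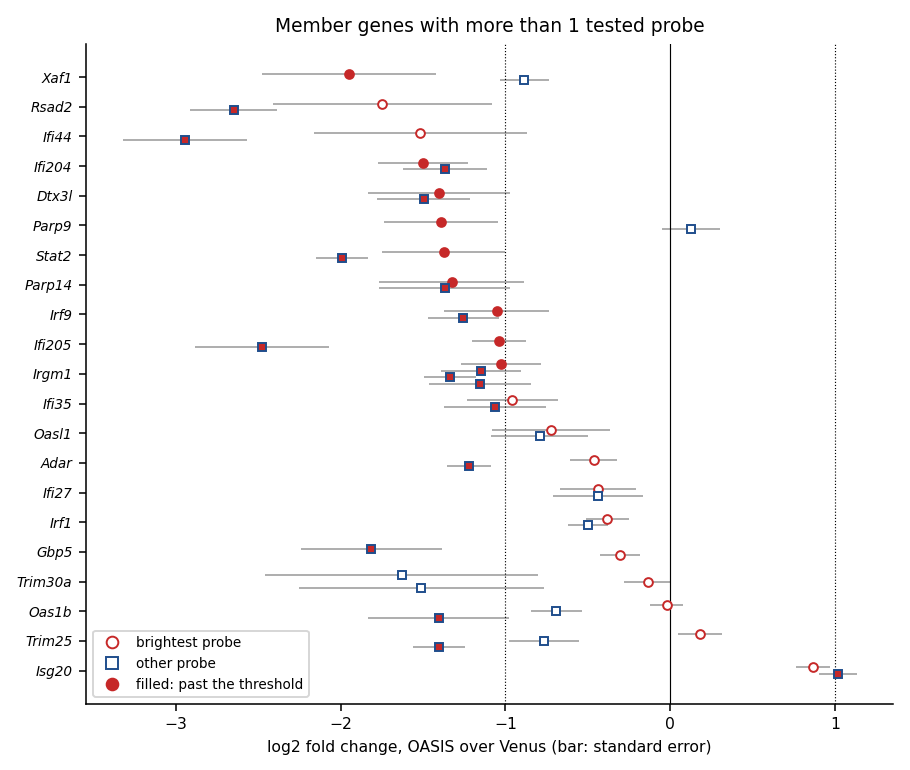
Log2 fold change of OASIS over Venus (x axis, bars of 1 standard error, dotted lines at 2-fold) for each tested probe of the 21 interferon-stimulated genes with more than 1. Circles are the brightest probes, squares the others, and filled points passed the threshold, with all 4 Irgm1 probes between -1.33 and -1.02 and the 3 Trim25 probes spread from -1.40 to 0.18. The dimmer probes of Ifi44, Xaf1 and Stat2 lacked a signal well above background on both OASIS arrays, and those of Ifi205 and Trim30a on OASIS replicate 1.

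Other genes of the interferon pathway were taken from a list of 73 that holds no member, of which 68 were on the array and 63 were tested. Of these 63 genes 10 fell, against 1.85% of all genes, and 3 rose, against 6.21%, with a median log2 fold change of -0.39. Among the ligands, Ifnb1, which encodes interferon-β, read -4.21 and -3.08 with Venus and -6.24 and -6.83 with OASIS. With OASIS it was not well above background and it was at least 5.64-fold lower there. Ifnb1 was tested only because the Venus arrays were well above background. Its adjusted limma p of 0.0165 was fitted to those dim OASIS values and does not belong to that bound. No other ligand of the 5 tested passed, and Ifng, the interferon-γ gene, was not well above background on any array. None of 6 receptor genes and none of 5 kinase genes passed the threshold in limma. At an unadjusted limma p under 0.05, 3 and 4 of them were lower, and 0 and 1 by the t-test. As for the members, the share of all genes at that unadjusted p was not counted. Without the fold threshold, 49.2% of the 63 pathway genes had an adjusted limma p under 0.1, against 36.8% of all genes. Ifnar1 differed by -0.25 and Ifnar2 by -0.32, and the kinases Jak1 and Tyk2 by -0.13 and -0.43.

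Irf7, the factor that amplifies type I interferon, read 4.47 and 5.02 with Venus and 1.99 and 3.61 with OASIS, and fell 3.85-fold (adjusted p = 0.0724). Irf3, which is activated by phosphorylation rather than induced, differed by -0.20 (adjusted p = 0.248). Of 10 sensors and adaptors Ifih1, the RNA sensor MDA5, fell 2.23-fold, and Ticam1, the adaptor of TLR3, rose 2.71-fold. Ticam1 read -0.74 and -0.78 with Venus and 0.80 and 0.56 with OASIS, with both OASIS arrays the higher. Of 6 negative regulators Socs1 and Socs3, which block JAK kinases, rose. Socs1 read -1.05 and -1.19 with Venus and 0.84 and 0.43 with OASIS, and rose 3.37-fold (log2 fold change 1.75, SE 0.17, adjusted p = 0.00748). Socs3 read 1.41 and 1.42 with Venus and 2.67 and 2.44 with OASIS, and rose 2.21-fold (log2 fold change 1.14, SE 0.12, adjusted p = 0.00868). The OASIS arrays lay within 0.41 of each other for Socs1 and within 0.23 for Socs3. The dimmest 2 of 4 Pias1 probes rose as well (1.26 and 1.26 on the log2 scale) and the dimmer probe of Zbp1, a sensor of Z-form nucleic acid, fell (-2.03), while their brightest probes did not pass.

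Of 25 other interferon targets tested, 7 fell. They were the chemokine genes Ccl5 (-1.95 on the log2 scale) and Cxcl10 (-1.53), the helicase gene Ddx60 (-2.25), the guanylate-binding gene Gbp9 (-1.79), Phf11d (-1.47), Slfn2 (-1.94) and the nuclear body gene Sp100 (-1.39). Ddx60 was not well above background on OASIS replicate 1, and the size of its difference rests in part on that value. Ccl5 read 2.05 and 2.23 with Venus and -0.28 and 0.66 with OASIS, without overlap. Genes that serve antigen processing and presentation on the same list, named after their values were seen, did not pass. Tap1 was at 0.02, B2m at -0.13, Psmb8 at -0.14 and Psmb9 at -0.47, with adjusted p of 0.933, 0.383, 0.567 and 0.179. Ifi30 was at -0.56 and missed the fold alone (adjusted p = 0.0231), with both OASIS arrays below both Venus arrays. The count of pathway genes that fell moved below and above the reported 10 when 1 array was left out.

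**Figure D5:**
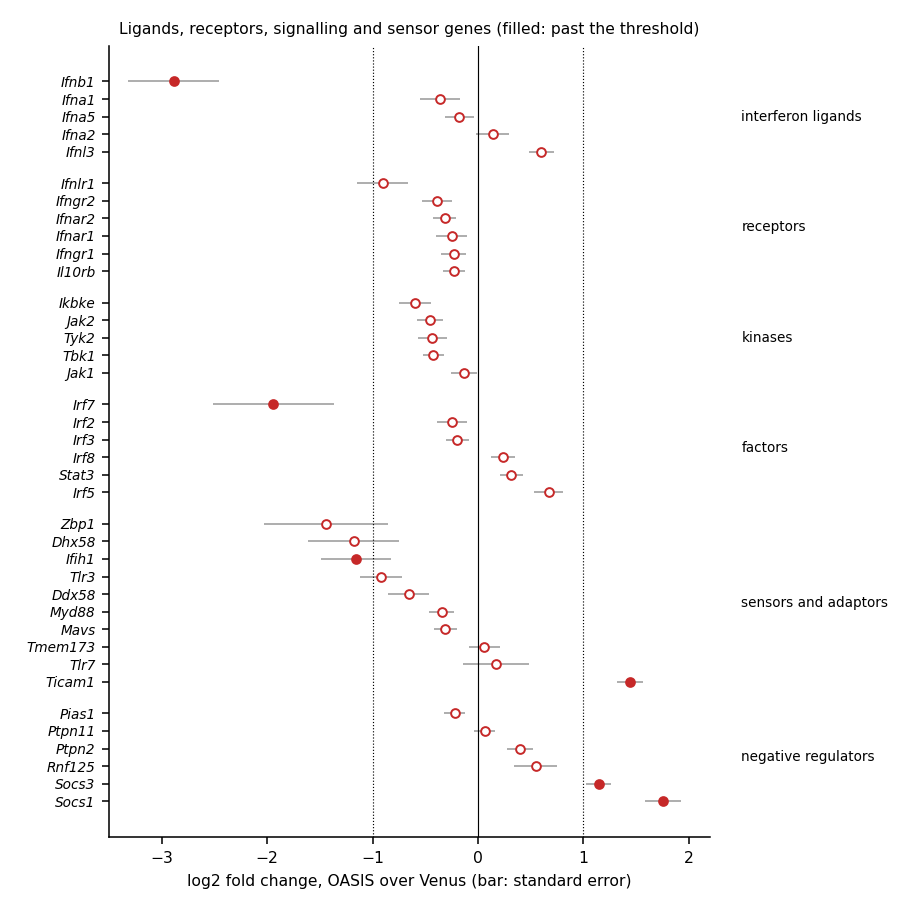
Log2 fold change of OASIS over Venus (x axis, bars of 1 standard error, dotted lines at 2-fold) for the ligand, receptor, kinase, factor, sensor and negative regulator genes that were tested, by brightest probe, with filled points past the threshold. Ifnb1, Irf7 and Ifih1 lie to the left, Socs1, Socs3 and Ticam1 to the right, and the receptors and kinases lie within 1 log2 unit of 0. The point of Ifnb1 was fitted to OASIS values not well above background.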

How the data were processed

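Total RNA of the 4 cultures was hybridised to 1-colour Agilent mouse arrays. The authors deposited scanner output in which Agilent Feature Extraction 12.1.0.3 gives each spot a background-corrected intensity, the median intensities of spot and background, and marks for outliers, saturation and signal well above background. They also deposited a table of the same signal intensity multiplied by 1 factor per array, with a detection score per spot, gene symbols and chromosome bands. Symbols and bands were taken from that table, and no coordinates are given because a genome of the array's build was not used here.

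The 75th percentile of an array was subtracted from the log2 of its corrected intensities, without control and outlier spots, and a probe took the mean of its spots. Testing was kept to probes for which at least 0.5 of the spots were well above background on both arrays of a group, which held for 31598 of 56605 probes and 16318 genes. OASIS was fitted against Venus with lmFit and eBayes of limma 3.58.1 (R 4.3.3, with data.table, version 1.17.8) with Benjamini-Hochberg adjustment over those probes. A gene passed the threshold when its adjusted p was under 0.1 and its fold over 2 or under 0.5, as in the methods of the study. Where no array of a group was well above background, "at least N-fold" sets the mean of the brighter group against the mean, per dim array, of the higher of the probe's value and the lowest value well above background there. The number of arrays limits the precision. The fit was tested on simulated data.

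The members, the pathway and marker lists, and the tests were chosen with earlier results of these data known. Values on each array are given for members with a probe past the threshold or with the highest level in their family, and the others by counts and ranges. From the pathway list Ifnb1, Ifnar1, Ifnar2, Jak1, Tyk2, Irf3, Irf7 and every gene past the threshold were named. One gene of the pathway list and one podocyte marker are not reported here and were left out of the counts of those lists. Alternatives covered scaling, background correction, the filter on dim probes, outlier spots, the choice of probe, the test, the threshold, a replicate block and leaving out each array. Slide could not be used as a block, since all arrays lay on 1 slide.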

Additional observations from a re-analysis of the deposited data

How the results depend on the processing

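The members' median log2 fold change lay between -0.74 without OASIS replicate 1 and -1.90 without OASIS replicate 2, and the fits on all 4 arrays gave -1.14 to -1.39. Another test or threshold on adjusted p could not change it. The counts past the threshold did change. With dim probes kept in the fit, 1 member gene, 10 member probes and 2 pathway genes were lower. The methods' t-test with Benjamini-Hochberg adjustment gave 0, 0 and 0 lower and 0 pathway genes higher. An adjusted p under 0.05 gave 7, 19 and 6 lower. Of all genes, 1.13%, 0.404% and 1.48% were lower in these fits, in that order. With the probe of smallest p, 1 member (Isg20) was higher. When 1 array was left out, 2 to 37 member genes, 10 to 58 member probes and 2 to 19 pathway genes were lower, and 3 to 5 pathway genes and 0 members were higher. The other alternatives on 4 arrays gave 22 to 34 member genes lower. The cause of these shifts was not tested. Of the values of single members on 4 arrays, 531 kept their side of the threshold, 81 lost it and 35 gained it, and with 1 array left out 124 kept, 63 lost and 11 gained it. Trim25 turned to -0.66 with the mean of its probes and -1.40 with the probe of smallest p, and leaving out 1 array took Gbp4 from -0.65 (without OASIS replicate 2) to 0.24 (without OASIS replicate 1) and Trim21 from -0.80 to 0.034.

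With the replicate block, 34 member genes were lower, the 26 of the fit without it among them, and the median stayed at -1.34. The differences between replicates 1 and 2 of the Venus arrays and of the OASIS arrays correlated across genes at r = 0.298 (Spearman 0.329) over all 16318 genes and 0.778 (0.709) over the 50 members, in which the genes are not independent. With 2 pairs the numbers of the labels do not establish that the samples are paired, and the fit without the block is the one reported. A signal well above background is the limit for dim probes: 7 of the 83 member probes could not be tested.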

Other observations

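The symbol Ifi203 carried no probe, but 2 probes without a symbol were described in the table with the full name of that gene and as its pseudogene. The first was not well above background on any array. The second read -1.10 and -0.94 with Venus and -3.08 and -2.22 with OASIS, a log2 fold change of -1.63 (SE 0.30, adjusted p = 0.0268 in limma). Both were named after their values were seen.

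Beyond the members and the pathway list, 306 tested genes carry a Gene Ontology term for interferon or for the response to virus in the deposited table. Of these, 11 fell, against 1.85% of all genes, and 13 rose, against 6.21%, with a median log2 fold change of -0.084. Among those that fell were relatives of members, Ifit3b (-2.30), Oas1f (-1.60) and Ifit1bl1 (-1.56), and the cytokine genes Ccl2 (-1.16) and Il15 (-1.03). Of the 50 genes lowest on OASIS replicate 1 against OASIS replicate 2, 16 were members, 5 were on the pathway list, 4 carried such a term and 25 did neither.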
